A study of Drosophila melanogaster with 164 samples.

Results

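The genes of the proteasome, the protease complex that degrades ubiquitin-tagged proteins, were followed in whole bodies of 41 inbred Drosophila melanogaster lines. They were taken by their FlyBase symbols: every gene of the deposited count table whose symbol is Rpn, Rpt, Prosalpha or Prosbeta followed by a digit. The rule found 32 of the 7414 genes in the table. They are 6 genes of the alpha ring and 7 of the beta ring of the core, 10 genes of the base and 8 of the lid of the cap, and Rpt3R, a paralog of the base gene Rpt3. The reference annotation lists 16 further symbols of this form, 15 of them paralogs and the other Prosalpha1, and these were not analysed here. Adults were 82 libraries of whole flies, collected within 48 hours of the first emergence in a vial and frozen after 4 days of maturing. Larvae were 82 libraries of whole feeding larvae, taken from the medium once the first wandering larva of the vial was seen. Both stages came from the same lines, reared at 25 °C and chosen to carry no inversion. They belong to the Drosophila Genetic Reference Panel (DGRP), which was inbred from a natural population. There were 2 biological replicates per line and stage, each a pool of 2 to 31 animals, with a median of 17 in adult and 20 in larval samples. The labels give no sex, and larvae were not sexed.

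The proteasome is a barrel with a cap at its ends. The alpha rings of the barrel form the gate, and the beta rings between them hold the proteolytic sites on Prosbeta1, Prosbeta2 and Prosbeta5. In the cap, the base carries a ring of Rpt ATPases that unfold substrates and thread them through the gate, together with scaffold and ubiquitin-receptor subunits, and the lid removes the ubiquitin chain through Rpn11. The subunits are assembled in fixed proportions. In animals their genes are known to be raised together by transcription factors of the cap'n'collar family when proteasome activity falls short.

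Counts per library summed to between 2748964 and 20421026 in adults and between 2407244 and 26429404 in larvae. The least counted of the 32 genes in any library was Rpt3R, with 100 counts in an adult library and 24 in a larval one, and every other one had at least 180 counts in every adult and 302 in every larval library. One larval column of DGRP787 (replicate 1) was identical to one of DGRP491 (replicate 2). Over 243 genes that differ strongly between adult lines, the shared counts correlated at 0.71 with the adults of DGRP491 and 0.05 with those of DGRP787. Both columns were still left out, so larvae have 80 libraries and these lines 1 larval library each. The larval libraries labelled DGRP882, DGRP897 and DGRP911 replicate 2 resembled the adults of another line over the same genes. Their correlation with the adults of their own labelled line was below 0.1. The library labelled DGRP882 was closest to the adults of DGRP911 (0.61), that labelled DGRP897 to DGRP882 (0.76), and that labelled DGRP911 to DGRP897 (0.61). A fit with these labels exchanged was not run. These libraries were kept under their labels, and calls on the 32 genes that change without them are given with the value without them. Of the 32 genes, 13 overlap an exon of a gene on the opposite strand (the longest overlaps are 264 bases for Rpn9 and 182 for Rpt6). Whether the authors counted by strand is not given in the sources used here, so reads of such partners cannot be told apart.

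Per kilobase of exon, the 31 genes other than the paralog were expressed at similar levels at both stages. In adults the median over these genes of the mean level was 102.69 CPM (counts-per-million) per kilobase. The lowest was Rpn1, the scaffold that binds shuttle receptors, at 61.0, and the highest Prosalpha2 at 189, a span of 3.10-fold. In larvae the median was 142.9 CPM per kilobase, and the span from Rpn2 at 65.7 to Prosalpha2 at 232 was 3.53-fold. All 31 lay within 2-fold of the median in adults, and 28 did in larvae. Rpt3R was far below them, at 28.3 CPM per kilobase in adults and 7.40 in larvae.

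Most proteasome genes were lower in adults than in larvae, by modest amounts. Of the 32 genes, 29 were lower in adults (edgeR quasi-likelihood fit blocked by line, Benjamini-Hochberg adjusted p under 0.05), where 47.8% of all genes in the table were. Rpn6 and Rpt3R were higher in adults, where 44.9% of all genes were, and Rpn13 did not pass the test. The median log2 fold change, adult minus larva, was -0.48 over the 32 genes and -0.03 over all genes. By subcomplex the median was -0.51 for the alpha ring, -0.36 for the beta ring, -0.52 for the base and -0.55 for the lid. Within the base, the 6 Rpt ATPases had a median of -0.69. For no gene did the adult and larval ranges of CPM over libraries part completely, as they did for 10.7% of all genes. Line means were lower in adults in all 41 lines for 16 of the 32 genes (21.7% of all genes) and higher in all of them for Rpt3R (22.9%). In 1 direction or the other this held for 44.6% of all genes. Whole bodies were measured, so fewer cells of a type and less RNA per cell cannot be told apart. The adult libraries were sequenced in 7 pools and the larval ones in 12, with none shared, so stage and pool cannot be told apart.

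**Figure D1:**
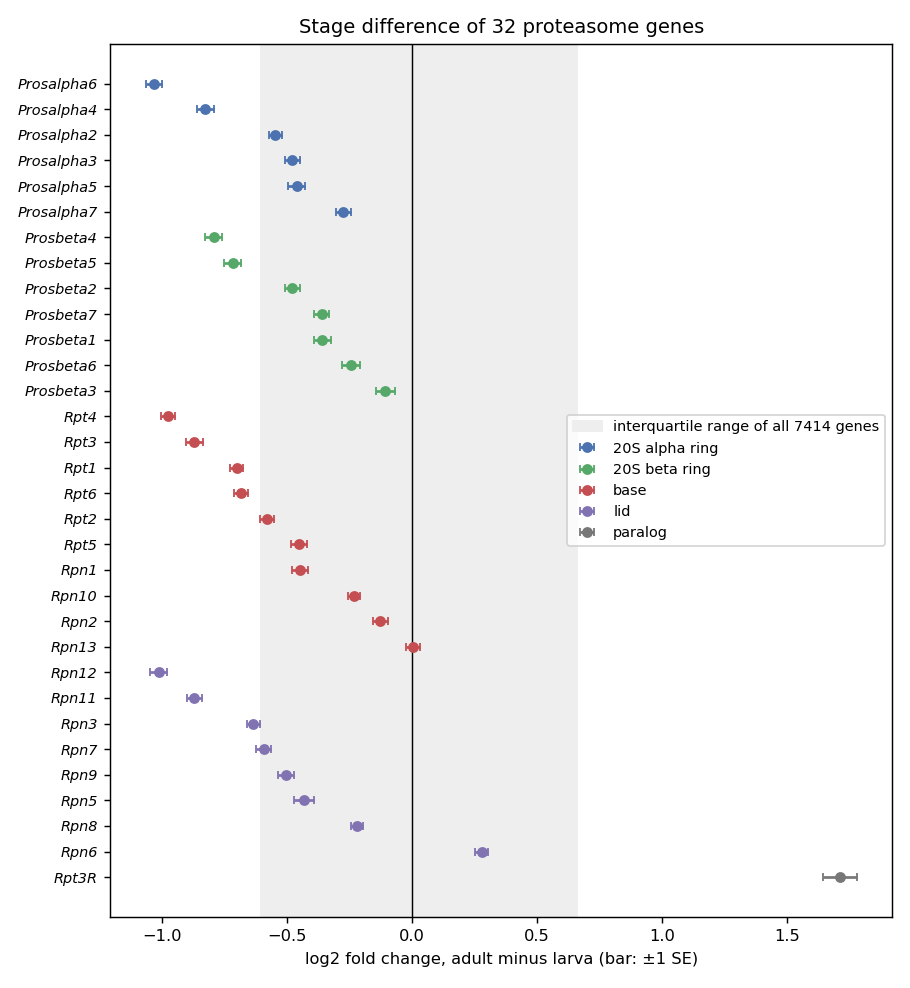
Log2 fold change, adult minus larva, of the 32 proteasome genes (points, ± 1 SE from the edgeR fit), grouped by subcomplex; the grey band is the interquartile range of all 7414 genes. Rpt3R (1.71) and Rpn6 (0.28) lie right of 0, Rpn13 lies at 0.00, and the other genes lie between -1.03 and -0.11.

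The fold changes depend on how libraries are scaled. TMM factors, which scale each library to the bulk of its genes, averaged 1.09 in adults and 0.919 in larvae. Under scaling to the total count alone, an alternative chosen after seeing the data, the median over all genes was 0.22 instead of -0.03, and that over the 32 genes -0.23 instead of -0.48. Relative to the median of all genes, the proteasome genes stood at -0.45 under both. A change of scaling moves all genes by nearly the same amount, so this value could hardly change and does not test the scaling. Under total count scaling 23 genes were lower and 5 higher in adults, against 29 and 2 with TMM factors. Of all genes, 36.3% were lower and 55.9% higher under that scaling. Prosbeta3 (0.15) and Rpn2 (0.12) then changed sides, and Rpn13 (0.26) was called higher in adults. Prosbeta6, Rpn8 and Rpn10 had positive values and were not called, and Prosalpha7 was not called either. CPM values below are relative to the library total, without TMM factors.

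In the alpha ring, whose tails form the gate, all 6 genes were lower in adults. Prosalpha6, on 2L from 10221351 to 10222546 (BDGP6), had the most negative value of the 32 genes. Its level was 70.8, 101 and 153 CPM in adults (lowest, median, highest of 82 libraries) and 128, 170 and 290 CPM in larvae (80 libraries). The larval range lay higher, with 56 larval libraries above the highest adult one, and the log2 fold change was -1.03 ± 0.03 (SE, adjusted p 8.99e-62). Prosalpha7, on 2R from 9846636 to 9847836, differed least in this ring. It had 94.2, 164 and 251 CPM in adults and 111, 166 and 261 CPM in larvae. These ranges were almost the same, and with TMM factors the log2 fold change was -0.27 ± 0.03 (adjusted p 2.7e-15), negative in 38 of 41 lines. Prosalpha2 had 98.8, 174 and 248 CPM in adults and 148, 210 and 318 CPM in larvae, with overlapping ranges and a lower adult line mean in all 41 lines. Prosalpha4 had a log2 fold change of -0.83, Prosalpha2 -0.55, Prosalpha3 -0.48 and Prosalpha5 -0.46.

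In the beta ring all 7 genes were lower in adults. The 3 genes of the proteolytic subunits differed in size of change. Prosbeta5, the chymotrypsin-like site, on 2R from 10819978 to 10821178, had 106, 178 and 267 CPM in adults and 155, 251 and 429 CPM in larvae. The ranges overlapped, with 25 larval libraries above every adult one, and the log2 fold change was -0.72 ± 0.03 (adjusted p 2.59e-43). Prosbeta2, the trypsin-like site, on 3L from 14999951 to 15001319, had 91.2, 143 and 194 CPM in adults and 116, 164 and 261 CPM in larvae. The ranges overlapped widely, line means were lower in adults in all 41 lines, and the log2 fold change was -0.48 ± 0.03 (adjusted p 2.43e-32). Prosbeta1, the caspase-like site, on 2R from 16013805 to 16014787, had 74.1, 138 and 190 CPM in adults and 95.0, 146 and 232 CPM in larvae. Here the medians were close, and the log2 fold change was -0.36 ± 0.03 (adjusted p 5.28e-19), negative in 38 lines.

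Among the beta subunits without a proteolytic site, Prosbeta4 differed most and Prosbeta3 least. Prosbeta4 had 75.4, 109 and 157 CPM in adults and 101, 157 and 266 CPM in larvae. The larval range lay higher, with 40 larval libraries above all adult ones, and the log2 fold change was -0.79 ± 0.03 (adjusted p 4.75e-48). Prosbeta3 had 89.4, 160 and 236 CPM in adults and 82.2, 145 and 247 CPM in larvae. The adult median was the higher of these, and the log2 fold change with TMM factors was -0.11 ± 0.04 (adjusted p 0.0087). With the 19 sequencing pools as replicates Prosbeta3 was not called (limma-trend, adjusted p 0.125), nor without replicate 1 of every line (edgeR, adjusted p 0.299). Prosbeta7 and Prosbeta6 lay between. Prosbeta7 had 119, 196 and 263 CPM in adults and 138, 211 and 321 CPM in larvae (-0.36 ± 0.03). Prosbeta6 had 98.3, 157 and 242 CPM in adults and 88.6, 153 and 261 CPM in larvae (-0.24 ± 0.04). The ranges of Prosbeta6 overlapped almost fully, and for Prosbeta7 13 larval libraries lay above every adult one.

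**Figure D2:**
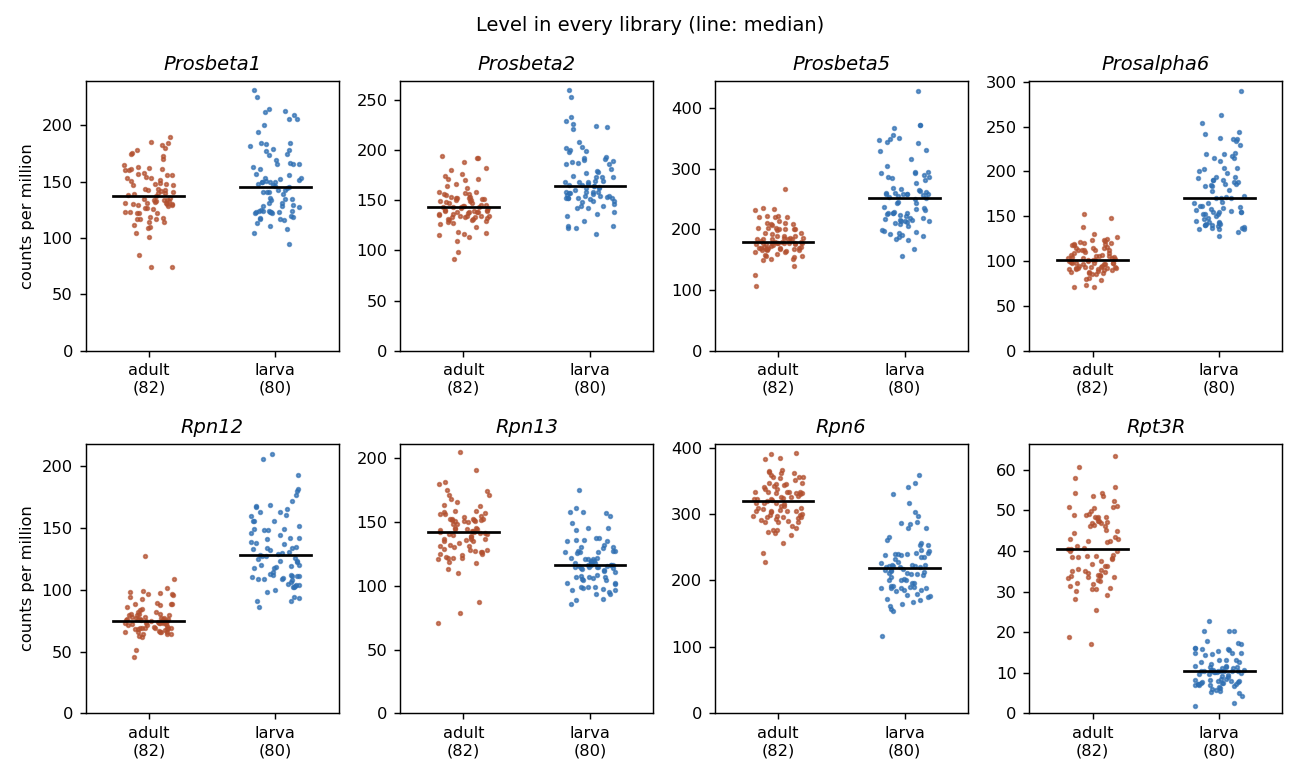
Level (CPM) of 8 proteasome genes in every library (points, spread sideways to be visible), adults on the left (82 libraries) and larvae on the right (80), with the median as a line. Adult points sit lower for Prosalpha6 (median 101 CPM in adults, 170 in larvae) and Rpn12 (74.6 CPM in adults, 128 in larvae) and higher for Rpn6 (320 CPM in adults, 219 in larvae) and Rpt3R (40.6 CPM in adults, 10.4 in larvae).

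In the base, 9 of 10 genes were lower in adults. The Rpt ATPases that form the motor were lower together, with log2 fold changes from -0.98 for Rpt4 to -0.45 for Rpt5. Rpt4, on X from 6289470 to 6291245, had 71.5, 104 and 155 CPM in adults and 122, 171 and 234 CPM in larvae. Of the larval libraries 61 lay above every adult one, and the log2 fold change was -0.98 ± 0.03 (adjusted p 1.11e-65). Rpt3 had -0.87, Rpt1 -0.70, Rpt6 -0.68 and Rpt2 -0.58. The scaffold genes Rpn1 (-0.45) and Rpn2 (-0.13) and the ubiquitin receptor Rpn10 (-0.23) differed less. Rpn2 had 172, 237 and 355 CPM in adults and 119, 218 and 343 CPM in larvae, and Rpn10 91.7, 158 and 242 CPM in adults and 114, 153 and 232 CPM in larvae. Both genes overlapped widely between the stages. Rpn2 was not called without replicate 2 of every line (-0.08, edgeR, adjusted p 0.155). Rpn13, the receptor that docks the deubiquitinase Uch-L5, on 2R from 13958545 to 13960404, had 71.0, 142 and 205 CPM in adults and 85.6, 116 and 175 CPM in larvae. The adult median was higher on this scale, the ranges overlapped almost fully, and with TMM factors the log2 fold change was 0.00 ± 0.03 (adjusted p 0.918).

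In the lid, 7 of 8 genes were lower in adults and Rpn6 was higher. Rpn12, the subunit that completes the lid in assembly, on 3L from 16583028 to 16584022, had 45.6, 74.6 and 127 CPM in adults and 85.9, 128 and 210 CPM in larvae. Of the larval libraries 41 lay above all adult ones, and the log2 fold change was -1.01 ± 0.03 (adjusted p 3.46e-59). Rpn11, the deubiquitinase, had -0.87, and its partner Rpn8, which lacks that activity, -0.22. The scaffold genes Rpn3 (-0.63), Rpn7 (-0.59), Rpn9 (-0.50) and Rpn5 (-0.43) lay between.

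Rpn6, which holds the cap to the core by touching the alpha ring, was the exception among the 31 genes other than the paralog. The gene lies on 2R from 14750166 to 14752910. It had 227, 320 and 392 CPM in adults and 116, 219 and 359 CPM in larvae. The ranges overlapped, with 50 larval libraries below the lowest adult one. The log2 fold change was 0.28 ± 0.03 (adjusted p 8.01e-19), positive in 40 of 41 lines, with -0.07 in DGRP535. Per kilobase, Rpn6 stood at 164 CPM in adults, above the median of 102.69, and at 115 CPM in larvae, below the median of 142.9.

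Rpt3R, the paralog of the ATPase gene Rpt3, on 3R from 9754735 to 9756510, ran opposite to Rpt3. It had 17.2, 40.6 and 63.4 CPM in adults and 1.84, 10.4 and 22.7 CPM in larvae. Of the larval libraries 74 lay below the lowest adult one. The log2 fold change was 1.71 ± 0.07 (adjusted p 9.01e-50), from 0.70 in DGRP787 to 2.85 in DGRP181, and Rpt3 had -0.87 ± 0.03. Testis markers moved with it: 4 of the 11 listed are in the table (topi, S-Lap1, S-Lap7 and loopin-1), and they summed to between 1758 and 9134 CPM in adults and between 11.0 and 725 CPM in larvae. Across lines, the Rpt3R level went with the mean log2 level of these markers, with Pearson's r of 0.71 in adults and 0.67 in larvae (n = 41 lines each, two-sided permutation tests, p 1e-05, the smallest they can give, and 4e-05). Adjusted over both stages these are 2e-05 and 4e-05. Spearman's rho was 0.70 in adults (p 1e-05) and 0.55 in larvae (p 0.00032), which both tests together leave at 2e-05 and 0.00032. Without the 2 lines farthest from the marker median r was 0.59 in adults and 0.74 in larvae, and with pool means removed 0.71 at both stages. The larval line test of Rpt3R was not passed (edgeR, adjusted p 0.860), so its larval r cannot be read as a difference between lines. The part of testis content in the stage difference of Rpt3R was not tested.

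Other tissue markers also differed between the stages. Midgut markers (6 of 7 listed in the table) summed to between 4679 and 22983 CPM in adults and between 16719 and 68030 CPM in larvae. Singly they were split, with 4 lower in adults and 2 higher, Mal-A1 (3.47) and alphaTry (1.09). Muscle markers (5 of 6) summed to between 3475 and 9471 CPM in adults and between 4960 and 26104 CPM in larvae, and neuron markers (4 of 5) to between 650 and 1853 CPM in adults and between 99.5 and 411 CPM in larvae. The midgut and muscle ranges overlapped in part, and the neuron ranges did not. Of the muscle markers 4 were lower in adults and Mhc was not called (-0.14, edgeR, adjusted p 0.129). Fat body markers (2 of 6) overlapped widely, at 3241 to 11015 CPM in adults and 2917 to 13488 CPM in larvae. Of these, FASN1 was higher (0.81) and apolpp lower (-0.68) in adults. None of the 3 female markers or the 9 female germline markers is in the table. The table holds only genes with at least 11 counts in every library of both stages, so this absence does not tell the sex of the adults. The male dosage-compensation RNA roX1 had between 317 and 1495 CPM in adults and between 42.0 and 726 CPM in larvae. With roX1 as a covariate 25 proteasome genes were lower and 3 higher in adults: Prosbeta3, Prosbeta6, Rpn2 and Rpn8 were no longer called and Rpn13 was higher (0.19). In that fit Rpt3R had a log2 fold change of 1.04 (adjusted p 5.52e-11), against 1.71 without the covariate. Prosalpha3 (-0.28), Prosalpha5 (-0.27), Prosalpha7 (-0.17), Prosbeta1 (-0.16), Prosbeta7 (-0.24) and Rpn10 (-0.13) were still called, with values over 1.5 times nearer to 0. With roX1 centred within each stage, a fit chosen after seeing the data, 29 were lower and 2 higher. Centring takes the stage difference out of the covariate, so this fit could hardly move the fold changes and does not test roX1 as their source. The part of the other markers in the stage difference was not tested.

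The 32 genes together took 0.486 ± 0.057% of the counts in adult libraries and 0.569 ± 0.088% in larval libraries (SD, n = 82 and 80). The adult share was 0.333, 0.480 and 0.702% (lowest, median, highest) and the larval share 0.390, 0.554 and 0.80%, so the ranges overlapped. Divided by TMM effective library sizes the means were 0.444% in adults and 0.617% in larvae. The adult line mean was below the larval one in 32 of 41 lines. Adult line means were lowest in DGRP897 (0.399%) and DGRP911 (0.408%) and highest in DGRP59 (0.602%) and DGRP801 (0.546%). The replicates of these lines lay apart, at 0.33 and 0.47% in DGRP897 and 0.34 and 0.48% in DGRP911. They were 0.70 and 0.50% in DGRP59 and 0.62 and 0.47% in DGRP801, so each extreme rests on 1 library. Larval line means were lowest in DGRP235 (0.426%) and DGRP774 (0.467%) and highest in DGRP879 (0.692%) and DGRP911 (0.689%). The highest adult library was DGRP59 replicate 1 (0.702%). The core genes took 0.197 ± 0.026% in adults and 0.237 ± 0.039% in larvae, and the cap genes 0.285 ± 0.032% in adults and 0.331 ± 0.052% in larvae.

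**Figure D3:**
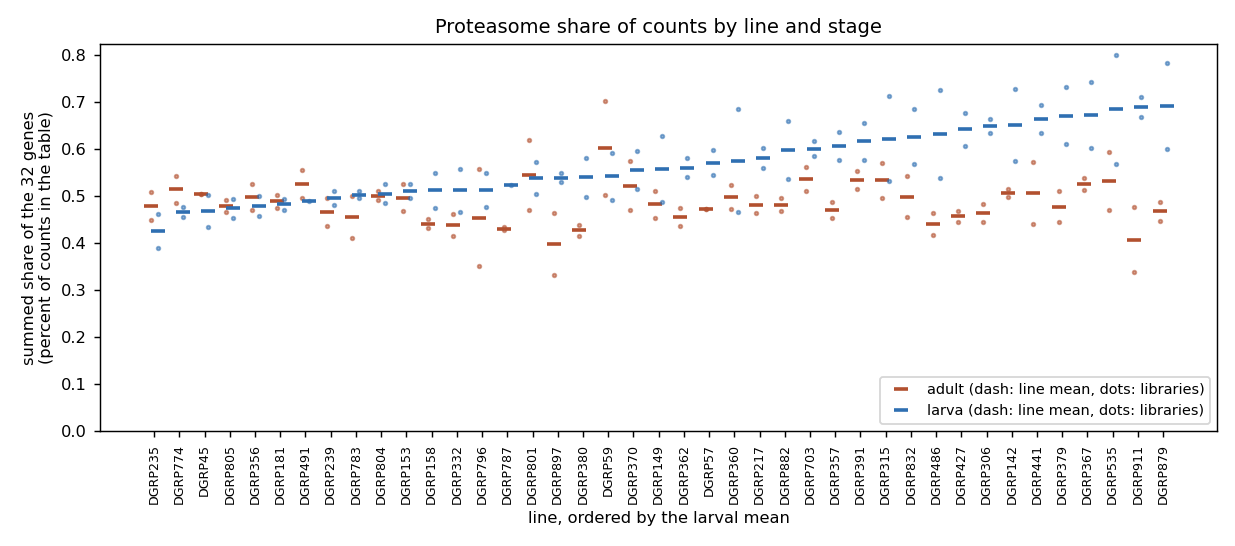
Share of all counts taken by the 32 proteasome genes in each of 41 lines, ordered by the larval mean (dots are libraries, dashes line means; adult left of larva within a line). Adult means lie below larval means in 32 lines, and adult means span 0.399 to 0.602% while larval means span 0.426 to 0.692%.

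Lines were ranked by the size of the stage difference as a description. The test of whether lines differ in it, the line-by-stage interaction given further on, was passed by 1 of the 32 genes. The median over the 31 genes of a line's adult minus larval log2 level was most negative in DGRP911 (-0.89) and DGRP379 (-0.83) and least negative in DGRP801 (-0.18), DGRP59 (-0.23) and DGRP491 (-0.24). DGRP911 gave the most negative difference for 16 of the 31 genes and DGRP379 for 7. DGRP491 gave the most positive one for 12 and DGRP801 for 5. The summed shares of the adult replicates of DGRP911, DGRP59 and DGRP801 lay apart, as given above. The larval libraries of DGRP911 include one in doubt, which was closest to the adults of DGRP897. DGRP491 has a single larval library, since the shared column was left out although it resembled the adults of DGRP491. How these ranks change with other labels was not tested. Without DGRP911 and DGRP491, a choice made after seeing the data, the counts called stayed at 29 lower and 2 higher in adults.

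A smaller share of the proteasome genes than of all genes was called different between lines. In adults 9 of 32 differed (edgeR quasi-likelihood F test over lines, Benjamini-Hochberg adjusted p under 0.05), where 68.5% of all genes did. These were Prosalpha6, Prosalpha7, Prosbeta1, Prosbeta3, Prosbeta6, Rpn3, Rpn7, Rpn9 and Rpt3R. Rpn7 lost this call with DESeq2 size factors (adjusted p 0.0518) and with a filter at 5 CPM (0.0608), and Rpn9 with roX1 as a covariate (0.0656). In larvae 7 of 32 differed, where 46.6% of all genes did: Prosalpha3, Prosalpha5, Prosalpha7, Prosbeta1, Prosbeta4, Rpn2 and Rpn10. Prosalpha7 and Prosbeta1 were called at both stages, as were 38.4% of all genes. With sequencing pool as an added factor 10 of the 32 were called in adults and 0 in larvae, where 70.7% and 30.9% of all genes were called. In that larval fit 7 calls were lost, and the adjusted p of these genes ran from 0.050 (Prosbeta4) to 0.222 (Rpn10). DESeq2 called more, 14 in adults and 16 in larvae, and 78.3% and 67.0% of all genes. With roX1 as a covariate 17 were called in adults, where 81.1% of all genes were.

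**Figure D4:**
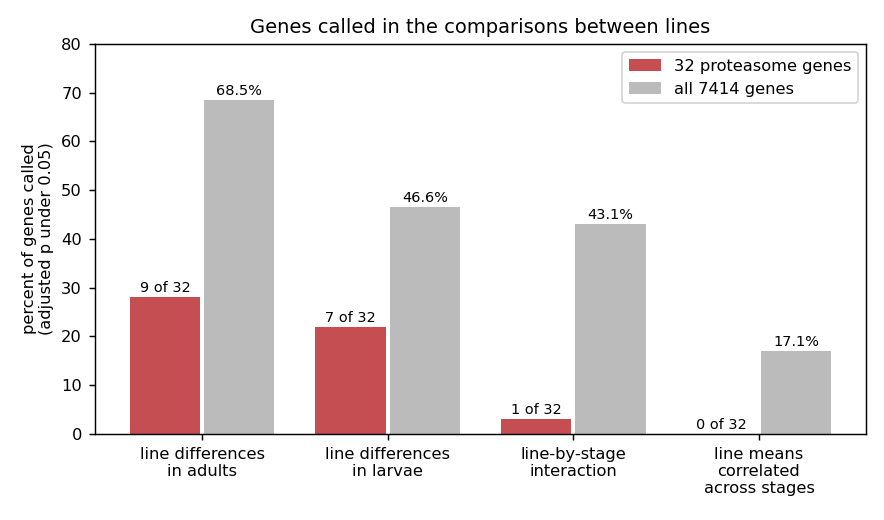
Percent of genes called (adjusted p under 0.05) in 4 comparisons between lines, for the 32 proteasome genes (red) and for all 7414 genes (grey). The proteasome bars stand at 9, 7, 1 and 0 of 32, against 68.5, 46.6, 43.1 and 17.1% of all genes.

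The share of variance between libraries that lay between lines (the intraclass correlation of log2 CPM) had a median over the 32 genes of 0.153 in adults and 0.190 in larvae. Over all genes the medians were 0.390 in adults and 0.287 in larvae. Under total count scaling the medians of the 32 genes were 0.091 in adults and 0.313 in larvae, and those of all genes 0.344 in adults and 0.319 in larvae. With roX1 regressed out the adult median was 0.326, against 0.450 over all genes. The line means of a proteasome gene spanned a median of 1.47-fold in adults and 1.69-fold in larvae, against 2.02-fold and 2.30-fold over all genes. In adults the highest share was that of Rpt3R, 0.64 ± 0.10 (jackknife SE over lines). Its line means ran from 4.47 log2 CPM in DGRP897 to 5.62 in DGRP181, 2.22-fold, and its adjusted p was 1.1e-05. Rpn6 followed with 0.44 ± 0.14 over a span of 1.34-fold, from DGRP783 to DGRP491, and its line test was not passed (adjusted p 0.0748). Rpn6 passed it with DESeq2 (0.000724) and with roX1 as a covariate in edgeR (0.0426). Prosbeta6 had 0.38 ± 0.16, a span of 1.73-fold from DGRP357 to DGRP59 and an adjusted p of 0.0107.

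In larvae the highest shares were those of Prosbeta4, Rpn10 and Rpn2. Prosbeta4 had 0.43 ± 0.14, with line means from 6.82 log2 CPM in DGRP491 to 7.94 in DGRP535, 2.17-fold (adjusted p 0.0099). Rpn10, the ubiquitin receptor, had 0.42 ± 0.12 over a span of 1.42-fold, from DGRP783 to DGRP535 (adjusted p 0.0357). Rpn2 had 0.41 ± 0.16 over 1.91-fold, from DGRP235 to DGRP832 (adjusted p 0.0292, and 0.0516 without the 3 larval libraries in doubt). The lid gene Rpn12 was not called (adjusted p 0.0553) and was called without those libraries (0.0464, edgeR). Rpt3R had a share of -0.14 ± 0.16 in larvae, where its counts were lowest, against 0.64 in adults. Its larval line test was passed only with roX1 as a covariate, of the alternatives run (adjusted p 0.0166, edgeR). Whether the shares of the stages differ was not tested for single genes.

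The line-by-stage interaction asks whether lines differ in unlike ways at the stages. It was called for 1 of the 32 genes, where 43.1% of all genes were called: Rpn2, the scaffold subunit on which Rpn13 sits (adjusted p 0.0044, edgeR). Adult line means of Rpn2 lay between 7.56 log2 CPM in DGRP142 and 8.02 in DGRP703. Larval ones lay between 7.36 in DGRP235 and 8.29 in DGRP832. The larval span was the wider, 1.91-fold, against 1.37-fold in adults. The adult minus larval difference ran from -0.51 in DGRP832 to 0.59 in DGRP235, and 28 lines were lower in adults. Without the 3 larval libraries in doubt the interaction of Rpn2 had an adjusted p of 0.0123, and Rpn10 was called too (adjusted p 0.0473). The interaction was not run with pool as a factor, with which the larval line test of Rpn2 was not passed (edgeR, adjusted p 0.102).

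Adult and larval line means of the same gene were weakly related. Line means rest on few libraries, and the median share of variance between lines was low in the 32 genes. It was 0.153 in adults and 0.190 in larvae, against 0.390 and 0.287 over all genes. A low r thus cannot tell unlike line differences from spread between replicates. Pearson's r across 41 lines passed the test for 0 of the 32 genes (two-sided permutation test with 100000 permutations, Benjamini-Hochberg over all 7414 genes), where 17.1% of all genes passed with a positive r. Without adjustment 6 genes had p under 0.05, and by Spearman's rho 0 passed. The median r was 0.16 over the 32 genes and 0.19 over all genes, and 28 of the 32 were above 0, as were 83.8% of all genes. Prosbeta7 had the highest r, 0.40 (p 0.0091, adjusted p 0.0520), with a rho of 0.37 (p 0.0164, adjusted p 0.101) and an r of 0.30 without the 2 lines farthest from its larval median. Without the 3 larval libraries in doubt its r was 0.43 and passed the test (adjusted p 0.0348). Prosalpha2 had an r of 0.37 (p 0.0185, adjusted p 0.0823), a rho of 0.33 (p 0.0342, adjusted p 0.156) and an r of 0.34 without the farthest lines. Prosbeta4 had an r of 0.36 (p 0.0199, adjusted p 0.0869), a rho of 0.39 (p 0.0108, adjusted p 0.0776) and an r of 0.39 without the farthest lines.

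The lowest values were those of Rpn2 and Prosbeta6. Prosbeta6 had an r of -0.07 (p 0.648, adjusted p 0.796), a rho of -0.08 (p 0.624, adjusted p 0.804) and an r of -0.05 without the farthest lines. Rpn2 had an r of -0.10 (p 0.546, adjusted p 0.727), a rho of -0.06 (p 0.704, adjusted p 0.852) and an r of -0.0036 without the farthest lines. By subcomplex the median r was 0.33 for the alpha ring, 0.21 for the beta ring, 0.14 for the base and 0.11 for the lid. With pool means removed r was 0.34 for Prosbeta7, 0.37 for Prosalpha2, 0.22 for Prosbeta4, 0.03 for Prosbeta6 and -0.15 for Rpn2.

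Within a stage, the line means of the proteasome genes varied together. Over the 465 pairs of the 31 genes other than the paralog, the median r of line means was 0.51 in adults and 0.57 in larvae, and it was 0.00 over all gene pairs of the table at both stages. In adults 51.8% of these pairs were above 0.5, against 2.49% of all gene pairs, and in larvae 57.4%, against 2.65%. The differences between the replicates of a line went together as well, with a median r of 0.62 in adults (41 lines) and 0.50 in larvae (39 lines). Of these pairs 64.3% in adults and 49.0% in larvae were above 0.5, against 6.07% and 5.40% of all gene pairs. The co-variation was thus present between libraries of 1 line, and that of line means cannot be read as differences between lines. Pairs of the same subcomplex had a median of 0.52 in adults and 0.60 in larvae, close to the 0.50 and 0.56 of pairs from different subcomplexes. These are descriptions, since the pairs share libraries and members.

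Some pairs were tied much more closely than others. In adults the highest pair was Prosalpha2 with Prosalpha5 (0.86). Rpn1 and Rpn2, the scaffold genes of the base, were the least tied to the other genes there, with medians of 0.18 and 0.26, and each had the other as its closest partner (0.77). In larvae the ATPase genes Rpt2 and Rpt3 had the highest r of all pairs (0.95), and Rpt1 with Rpt3 had 0.94.

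**Figure D5:**
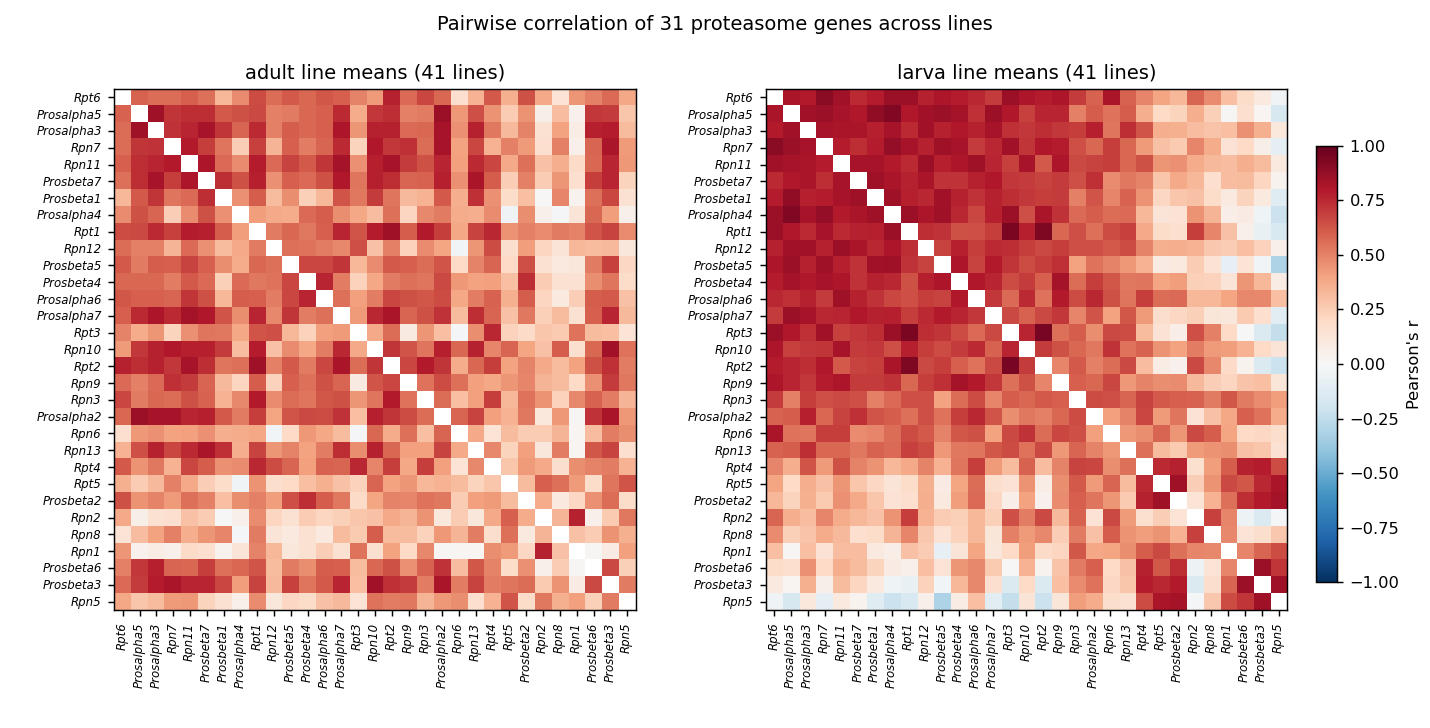
Pearson's r between line means of each pair of the 31 proteasome genes other than Rpt3R, in adults (left) and larvae (right), both ordered by the larval median r. The adult panel is red nearly throughout (median 0.51), and in the larval panel the last genes are paler against the rest. Among these, Rpt4, Rpt5, Prosbeta2, Prosbeta6, Prosbeta3 and Rpn5 are red with each other (median 0.77), and Rpn2, Rpn8 and Rpn1 stand between them in the order.

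In larvae 6 genes went together more closely than with most others. Prosbeta2, Prosbeta3, Prosbeta6, Rpt4, Rpt5 and Rpn5, a set drawn after these values were seen, had a median r of 0.77 among themselves across line means. The other 25 genes had 0.67 among themselves, and pairs between the sets 0.29. The split was not clean, since Rpn1, Rpn2 and Rpn8, counted among the 25, had low medians with the other genes (0.31, 0.34 and 0.33). The closest partner of Rpn1 in larvae was one of the 6, Rpt5 (0.66), and over replicate differences Rpt4 (0.77), with -0.44 against Prosbeta5. The lowest pair was Rpn5 with Prosbeta5 (-0.31). Replicate differences in larvae gave 0.75 within the 6 genes, 0.63 within the 25 and 0.05 between them. In adults line means gave 0.46 within the 6 genes, 0.53 within the 25 and 0.47 between. With pool means removed the larval values were 0.78, 0.66 and 0.30. The difference between the mean log2 levels of the sets (6 genes minus 25, centred within a stage) had an SD over libraries of 0.06 in adults and 0.27 in larvae. It ran from -0.22 to 0.11 in adults and, in larvae, from -0.71 in DGRP911 replicate 2, one of the libraries in doubt, to 0.40 in DGRP360 replicate 2. Counts over all genes include the 6 and the 25, which are tied to this difference by construction. Among all 7414 genes, 6 in adults and 772 in larvae had an r above 0.5 with it over libraries. An r below -0.5 with the difference was seen for 137 genes in adults and 432 in larvae. Over the 80 larval libraries its r was 0.44 with the midgut marker sum, 0.35 with fat body, 0.29 with muscle and 0.26 with the library total, and between -0.11 and 0.06 with the neuron, testis and roX1 levels. The part of these in the larval pattern was not tested.

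Genes that act with the proteasome were compared list by list. Of all genes 44.9% were higher and 47.8% lower in adults, and 55.9% and 36.3% under total count scaling. Adult and larval ranges of CPM did not overlap for 10.7% of all genes. All 8 genes of the COP9 signalosome, a complex related to the lid that removes Nedd8 from ubiquitin ligases, were lower in adults, with a median of -0.62, a highest value of -0.25 (CSN7) and a lowest of -0.82 (CSN5). Under total count scaling 6 of them were, with CSN1b (-0.02) and CSN7 (0.00) not called. With roX1 as a covariate 7 were, with CSN7 not called (-0.10, edgeR, adjusted p 0.0921). CSN5, the catalytic subunit, had 20.4, 36.1 and 83.3 CPM in adults and 36.7, 52.5 and 116 CPM in larvae. These ranges overlapped, and the adjusted p was 2.92e-65.

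Of 10 genes for assembly factors, regulators and ubiquitin shuttles, 4 were higher and 6 lower in adults, near the shares of all genes. Their median was -0.20. The ends were ntc, the F-box protein that binds the regulator PI31, at 3.33 ± 0.07 (adjusted p 2.05e-78) and Sem1, a small lid protein, at -0.97 ± 0.05 (adjusted p 3.41e-39). The level of ntc was 45.0, 127 and 212 CPM in adults and 3.82, 10.1 and 27.4 CPM in larvae, without overlap. PI31 itself was higher in adults in all 41 lines (1.00), as was the shuttle gene Ubqn (0.83). The assembly chaperone Pomp had -0.32 and the activator REG -0.37. Under total count scaling 5 were higher and 3 lower, rngo changed sides (0.09), and Pomp and Rad23 were not called.

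Of 9 genes for cofactors of the unfoldase p97 and of protein export from the endoplasmic reticulum for degradation, 8 were higher in adults and Der-2 lower (-0.23 ± 0.03, adjusted p 4.38e-11, and not called under total count scaling). Npl4, a p97 cofactor, had 151, 866 and 1565 CPM in adults and 57.1, 77.0 and 113 CPM in larvae, without overlap (3.18 ± 0.05, adjusted p 8.17e-92). Of 13 ubiquitin, E1 and E2 genes 6 were higher and 6 lower, near the shares of all genes. The polyubiquitin gene Ubi-p63E had the highest value (1.26 ± 0.07, adjusted p 3.11e-36), and RpS27A, which encodes ubiquitin fused to a ribosomal protein, the lowest (-1.31 ± 0.03, adjusted p 3.19e-72). Under total count scaling 7 of these were higher and 4 lower in adults. One of the 6 lower, the polyubiquitin gene Ubi-p5E (-0.14, adjusted p 0.019), was not called with the replicate block (0.10), with pools as replicates (0.561, limma-trend), or without replicate 1 (0.651) or 2 (0.0677) of every line. Of 4 genes for transcription of proteasome genes, cnc, the cap'n'collar factor, and Keap1, which binds it, were higher in adults (0.35 each) and Pngl, a deglycosylase of that pathway, was lower (-0.49). The partner maf-S was not called (-0.01, adjusted p 0.843) and was higher under total count scaling (0.25). With roX1 as a covariate cnc was not called (0.07, adjusted p 0.472). In the lists above, rngo (edgeR, adjusted p 0.175), eff (0.636) and Ubi-p5E (0.895) lost their calls in that fit. Ubc6 became called lower in adults in it (-0.28, adjusted p 0.00413). Without replicate 1 of every line the p97 cofactor p47 was not called (0.10, edgeR, adjusted p 0.0981).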

How the data were processed

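The authors deposited raw counts per gene, 1 table of 7414 genes by 164 libraries of polyA-selected stranded mRNA. Per the submitters' processing notes, the tools named are FastQC, Trimmomatic and STAR and the builds BDGP6 and dm6. The counting tool is not given in the sources used here. The lowest count in the table is 11, so genes near silence in any library are absent. Symbols of 7349 identifiers and all positions are from the Ensembl BDGP6 annotation. Groups, lines, replicates and pools came from the labels. Members and gene lists were chosen with earlier results of these data known.

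From 162 libraries, edgeR 4.0.16 (R 4.3.3, TMM) tested stage with line as a block, line within stage and line-by-stage interaction, adjusted (Benjamini-Hochberg) over all genes, threshold 0.05. Log2 CPM (prior count 2) gave line means, intraclass correlations and r (scipy 1.17.1, numpy 2.4.6). Scripts were tested on simulated data. The rule for named genes took all members, with full values for the proteolytic subunits, the ends of each subcomplex, members higher in adults or not called, the 3 highest intraclass correlations per stage, the 3 highest and 2 lowest r, and the ends of each list. The larval set of 6 genes was drawn after its values were seen. Alternatives were other scaling, tests (DESeq2 1.42.0, limma 3.58.1), filters, covariates, pools and left-out libraries. Replicates are called biological in the labels. Replicate numbers were not taken to pair the stages in the main fit.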

Additional observations from a re-analysis of the deposited data

Results flagged for a closer look

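Rpn2, the scaffold gene of the base, stood out because its differences between lines were unlike at the stages, by the test of the line-by-stage interaction (edgeR quasi-likelihood F test, adjusted p 0.0044). Adult line means spanned 1.37-fold and larval ones 1.91-fold. It was the only one of the 32 proteasome genes for which that test passed with all 162 libraries. Without the 3 larval libraries in doubt Rpn10 passed too. The adjusted p lay between 0.0044 and 0.0123 over the alternatives run. These did not include sequencing pool, roX1, total count scaling or the DESeq2 test. With pool as a factor the larval line test of Rpn2 was not passed (edgeR, adjusted p 0.102).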

How the results depend on the processing

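Of 85 recomputed summaries (counts of genes called, medians and summed shares), 76 stayed within 1.5 times or 1 spread of the value reported. Line calls in adults were 9 and became 14 with DESeq2 and 17 with roX1 as a covariate, which also moved the median intraclass correlation in adults to 0.326 when regressed out. Line calls in larvae were 7 and became 16 with DESeq2, 4 with all columns kept and 0 with pool as a factor. Without the 3 larval libraries in doubt the interaction called 2 genes and the cross-stage r 1 gene. Total count scaling called 5 genes higher in adults and turned Prosbeta3 (0.15), Rpn2 (0.12) and rngo (0.0876) to higher in adults. Under it the median over all genes was 0.22, against -0.03 with TMM factors. Which scaling is nearer the true levels was not tested, nor was the cause of the other changes. Leaving out replicate 1 or 2 of every line gave 28 genes lower and 2 higher in adults either way, 0 cross-stage calls, median pairwise r of 0.54 to 0.57 in adults and 0.54 to 0.58 in larvae, and summed shares of 0.478 to 0.493% in adults and 0.560 to 0.577% in larvae. Line tests have no residual degrees of freedom without a replicate and were not run so. Same-numbered adult and larval libraries of a line did not deviate together (median r 0.05 over 39 lines, above 0.1 in 14). These values cannot show whether the numbers pair the stages, and the main fit did not pair them. With the replicate block 29 genes were lower and 2 higher in adults, line calls were 12 in adults and 7 in larvae, and the interaction called 1. Of 1884 values of single genes, 1801 kept their side of the threshold (35 of these, uncalled fold changes of Rpn13, maf-S and Ubc6 and uncalled cross-stage r of 16 genes, changed sign), 42 were no longer called, 38 became called and 3 reversed. This tally and that of the summaries include fits that could hardly change. The filter at 5 CPM removed no gene from the stage and interaction fits, and roX1 centred within stage holds no stage difference. Depth limits Rpt3R in larvae most, with as few as 24 counts.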
